A study of Mus musculus with 6 samples.

Results

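The genes described here encode the subunits of the respiratory chain and of the ATP synthase, in glomeruli of mice whose podocytes lacked Vhl and of wild-type littermates. Members were the genes whose array symbol starts with Ndufa, Ndufb, Ndufc, Ndufs, Ndufv, Uqcr, Cox4 to Cox8 or Atp5, or is Sdha to Sdhd. The Ndufaf assembly factors, Ndufa4, Ndufa4l2, Cox4i1 and Cox4i2 were not members. This gave 78 of the 18193 genes that have a probe set with a single symbol: 34 of complex I, 4 of complex II, 8 of complex III, 15 of complex IV and 17 of complex V. Of these, 75 passed the filter on low signal and were tested. RNA came from glomeruli, the filtering units of the kidney, isolated with magnetic beads from 6 female mice aged 6 weeks, with 1 Affymetrix array per mouse. In 3 mice a Cre transgene driven by the podocin promoter had excised a floxed Vhl locus, and only such mice were used whose albumin in urine at 4 weeks did not exceed the average of wild-type mice. The other 3 were wild-type littermates. The podocin promoter is active in podocytes, so the other cells of a glomerulus keep Vhl in both groups.

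The respiratory chain lies in the inner mitochondrial membrane. Complex I takes electrons from NADH and complex II from succinate, complex III passes them to cytochrome c, and complex IV passes them to oxygen. Complexes I, III and IV pump protons, and complex V, the ATP synthase, lets the protons back and makes ATP. The proximal tubule, which lies next to the glomeruli, is among the tissues richest in mitochondria, while podocytes, which wrap the capillaries of the glomerulus, have fewer. The Vhl protein sends hypoxia-inducible factors (HIF) to the proteasome when oxygen is present, and HIF is known to shift cells from respiration towards glycolysis.

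Promoters of 4 members are printed because subunit genes are known targets of the nuclear respiratory factor NRF1, of ETS factors such as GABP, and of the estrogen-related receptor ERRA. The 4 were picked by hand and do not stand for the members in general. Among them, Sdhd and Atp5g3 hold the only 2 ERRA matches in the 71 member windows. Each window runs from 250 bases before to 50 bases after the start (RefSeq, GRCm38.p6), and is written 5′ to 3′ with matches to these motifs in capitals. The motifs searched on both strands were GCGCA, any base and GCGC for NRF1, CCGGAAG for ETS factors and TCAAGGTCA for ERRA. Sdhd holds all 3, Atp5g3 holds NRF1 and ERRA, Cox6a1 holds NRF1 at 2 places and ETS, and the heart and muscle isoform gene Cox7a1 holds none.
Sdhd (chr9:50603800-50604099, minus strand): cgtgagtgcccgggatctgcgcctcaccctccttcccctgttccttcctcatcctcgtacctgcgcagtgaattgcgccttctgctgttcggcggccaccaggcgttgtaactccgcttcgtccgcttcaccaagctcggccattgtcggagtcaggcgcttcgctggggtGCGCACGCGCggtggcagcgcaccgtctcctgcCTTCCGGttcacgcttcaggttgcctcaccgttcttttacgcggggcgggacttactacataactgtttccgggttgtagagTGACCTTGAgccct
Atp5g3 (chr2:73911277-73911576, minus strand): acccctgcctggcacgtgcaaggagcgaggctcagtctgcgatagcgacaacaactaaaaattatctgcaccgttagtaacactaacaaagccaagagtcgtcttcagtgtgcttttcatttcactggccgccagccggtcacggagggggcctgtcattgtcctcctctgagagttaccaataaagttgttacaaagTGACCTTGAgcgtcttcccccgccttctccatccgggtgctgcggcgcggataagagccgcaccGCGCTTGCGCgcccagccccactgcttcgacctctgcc
Cox6a1 (chr5:115348909-115349208, minus strand): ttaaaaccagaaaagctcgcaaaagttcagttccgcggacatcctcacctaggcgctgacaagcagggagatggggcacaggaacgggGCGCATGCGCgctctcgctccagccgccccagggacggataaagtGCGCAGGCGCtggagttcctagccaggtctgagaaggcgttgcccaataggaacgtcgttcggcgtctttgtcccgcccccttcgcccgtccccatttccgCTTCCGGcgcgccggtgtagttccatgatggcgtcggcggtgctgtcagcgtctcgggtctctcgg
Cox7a1 (chr7:30183921-30184220, plus strand): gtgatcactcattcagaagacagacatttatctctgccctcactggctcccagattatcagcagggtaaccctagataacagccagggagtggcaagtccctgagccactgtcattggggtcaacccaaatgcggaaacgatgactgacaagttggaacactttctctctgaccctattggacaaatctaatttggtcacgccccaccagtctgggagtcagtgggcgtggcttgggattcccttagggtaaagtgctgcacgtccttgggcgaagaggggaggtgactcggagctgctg

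Windows were found for 66 of the 78 members, 71 windows in all. The NRF1 motif was in 16 of them (22.5%), against 4.6% of all 32851 windows. The ETS motif was in 17 (23.9%, against 8.86% of all) and the ERRA motif in 2 (2.82%, against 0.423%). The YY1 motif AAGATGGC was in 9 (12.7%, against 2.75%). The shorter motifs ACGTG, the core of a HIF site, and CCAAT were in 26.8% and 40.8% of the member windows and in 19.6% and 37.4% of all windows. Members with the NRF1 motif came from all 5 complexes, among them Ndufa8, Sdha, Sdhd, Uqcrc1, Cox6a1, Atp5c1 and Atp5o. A match shows only that these letters are present.

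Values are MAS5 signals, which have been scaled by the authors to the same trimmed mean of 500 in every array. Changes are log2 differences of signal + 28, Vhl-deleted minus wild-type, from limma with Benjamini-Hochberg adjustment over 11159 genes, and n = 3 arrays per group throughout. Egln3, a HIF prolyl hydroxylase and HIF target, had 5098, 4792 and 3678 in Vhl-deleted glomeruli, against 144, 171 and 149 in wild-type glomeruli. Its groups were far apart (limma, adjusted p = 9.74e-05). Vhl had 611, 619 and 606 in Vhl-deleted glomeruli, against 809, 665 and 707 in wild-type glomeruli, with an adjusted p of 0.944 in limma, and it was not checked whether its probes lie in the deleted exon. Of 22 proximal tubule markers tested, all 22 had a positive change, and their mean level differed most in wild-type replicate 3, as described below. In whole glomeruli, fewer cells of a type and less RNA per cell cannot be told apart.

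None of the respiratory chain and ATP synthase subunits passed the test for a difference between Vhl-deleted and wild-type glomeruli. Of the 75 tested, 0 passed an adjusted p of 0.05 in limma, where 0.0807% of all genes tested were called (0.0717% higher and 0.00896% lower in Vhl-deleted glomeruli). Likewise 0 had an unadjusted p below 0.05, where 4.92% of all genes did. The adjusted p lay between 0.944 and 0.986. The lowest unadjusted p was 0.138, for Atp5g3. In no tested member did the 3 arrays of one group lie beyond the 3 of the other, while over all genes this held for 5.04% in the higher and 5.64% in the lower direction.

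The changes were small and mostly positive. Of the 75 members, 71 had a positive change and 4 a negative one, from -0.27 for Cox6b2 to 0.46 for Cox7a1. Their median was 0.19, beside a median of 0.00 over all genes tested. By complex the median was 0.16 for I, 0.26 for II, 0.22 for III, 0.24 for IV and 0.18 for V. The 95% intervals of the fit with all 6 arrays bound the size in whole glomeruli, not in podocytes alone. All 75 had a lower bound above -1, a 2-fold lower level, with the lowest at -0.80. The upper bound was below 1 in 69 members and reached 1.38 in Cox7a1. Such bounds were common: of all 11159 genes tested, 10753 had the lower bound above -1 and 10130 the upper bound below 1. Without both replicates numbered 3, a fit chosen after the data were seen, the lowest lower bound of the members was -1.01.

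**Figure D1:**
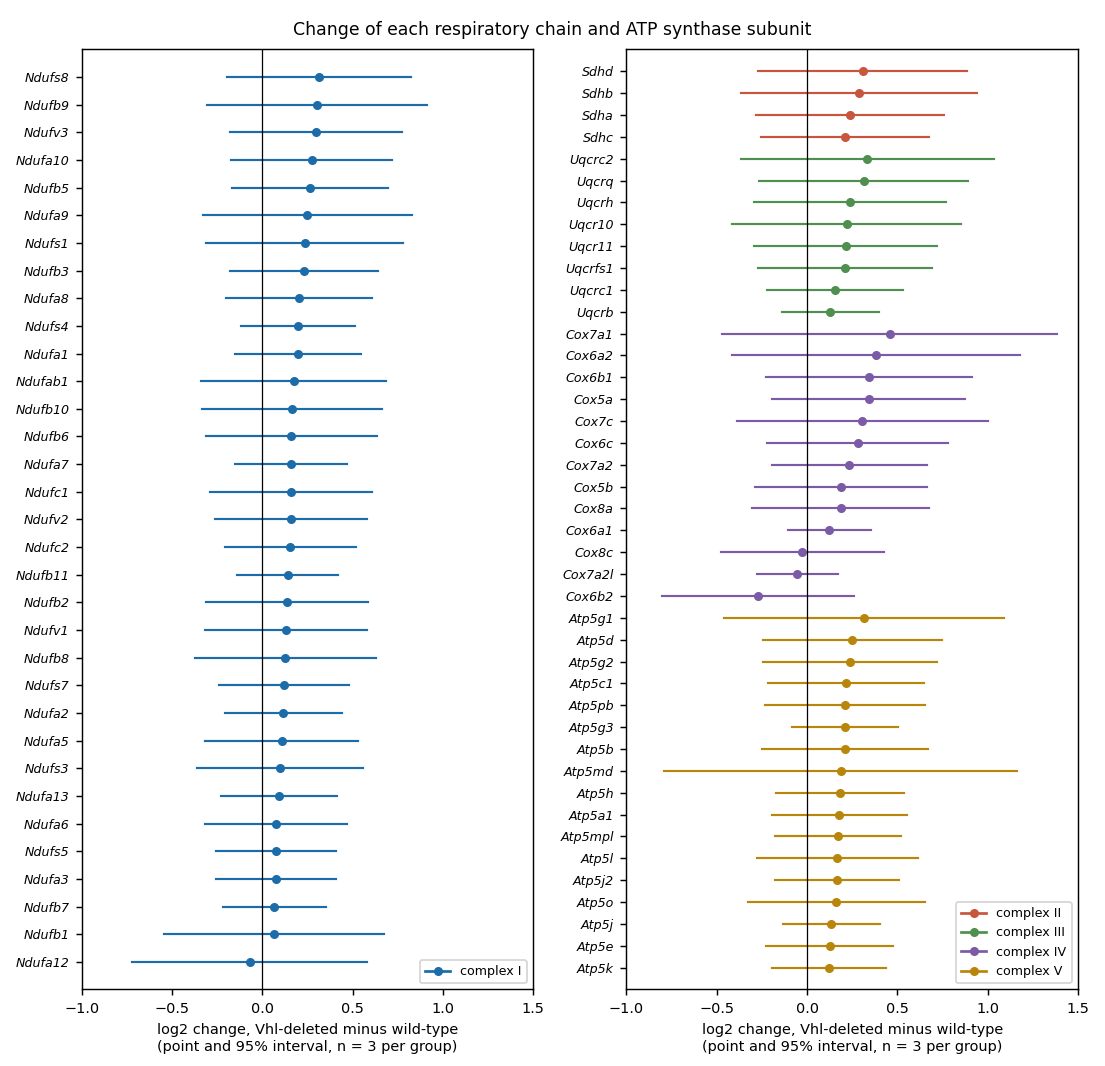
Log2 change of each tested subunit gene, Vhl-deleted minus wild-type, with its 95% interval (x axis), with genes down the page grouped by complex. Most points lie right of 0, from -0.27 to 0.46, and all 75 intervals cross 0.

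The positive sign of these changes went with both replicates numbered 3, most of all with the wild-type array. Wild-type replicate 3 was the lowest of the 6 arrays in 71 of 75 members (94.7%), while it was the lowest in 27.5% of all genes tested. Vhl-deleted replicate 3 was the highest in 57 members (76%), against 25.9% of all genes. By complex this share was 75.8% for I, 75% for II, 100% for III, 46.2% for IV and 88.2% for V. The mean level of the 75 members, as log2(signal + 28), was 12.40, 12.28 and 12.61 in Vhl-deleted replicates 1, 2 and 3, against 12.42, 12.44 and 11.86 in wild-type replicates 1, 2 and 3. The groups overlapped, and only wild-type replicate 3 lay below the Vhl-deleted range.

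The shortfall of wild-type replicate 3 ran through all 5 complexes but differed in size between members. Relative to the mean of the other two wild-type arrays it had a median of -0.57 over the members, beside 0.03 over all genes. By complex the median was -0.56 for I, -0.83 for II, -0.67 for III, -0.58 for IV and -0.46 for V. It was largest in Atp5md (-1.51), Cox7a1 (-1.33), Cox6a2 (-1.15), Atp5g1 (-1.11) and Uqcrc2 (-1.09), and near 0 in Ndufs5 (-0.04) and Cox7a2l (0.06). The size was only weakly related to the level of the gene (Spearman 0.112 across 75 genes of the same arrays, which are not independent). The 4 members in which another array was the lowest were Ndufs5, Cox6b2, Cox7a2l and Cox7c.

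**Figure D2:**
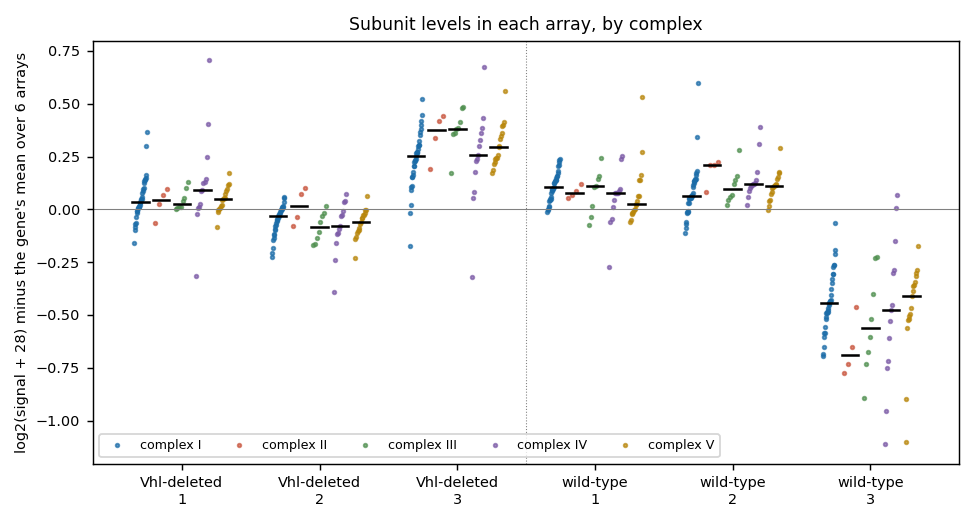
Level of each tested subunit in each array as log2(signal + 28) minus the mean of that gene over the 6 arrays (y axis), with Vhl-deleted arrays left and wild-type arrays right, points for genes coloured by complex and black bars for medians. By median, wild-type replicate 3 lies lowest and Vhl-deleted replicate 3 highest in every complex, and the medians of the other 4 arrays lie closer to 0. Single genes differ, most of all in complex IV.

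Markers of the tubule followed the same order of extremes. The mean of the 22 proximal tubule markers tested, out of 25 listed, was 11.93, 11.99 and 12.71 in Vhl-deleted replicates 1, 2 and 3, against 12.13, 12.52 and 10.39 in wild-type replicates 1, 2 and 3. Slc34a1, a phosphate transporter, had signals of 8599, 8407 and 14943 in Vhl-deleted arrays, against 9349, 11021 and 2417 in wild-type arrays. Wild-type replicate 3 was the lowest array in 20 of the 22, and the median shortfall was -2.14. The 12 distal nephron and collecting duct markers tested, out of 14, ran from 10.61 to 11.32 in Vhl-deleted arrays and from 9.91 to 11.02 in wild-type arrays, again with wild-type replicate 3 the lowest.

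Markers of glomerular cells did not share that order. The 13 podocyte markers tested, out of 16, had means of 12.71, 12.64 and 12.45 in Vhl-deleted replicates 1, 2 and 3, against 12.69, 12.71 and 13.08 in wild-type replicates 1, 2 and 3. Wild-type replicate 3 was thus the highest array for podocyte markers and was the lowest in 0 of the 13. The nephrin gene Nphs1 had a signal of 5720, 4827 and 5691 in Vhl-deleted arrays, against 5679, 6698 and 9142 in wild-type arrays. Single podocyte markers differed, with 3 positive and 10 negative changes. Groups did not overlap in Cdkn1c, which was higher (0.48), and in Lmx1b (-0.53), Plce1 (-0.57) and Foxc2 (-0.58), which were lower. Over all genes this held for 5.04% in the higher and 5.64% in the lower direction. The unadjusted p in limma was below 0.05 in 4 of the 13, against 4.92% of all genes. The 10 endothelial markers ranged from 12.34 to 12.56 in Vhl-deleted and from 12.29 to 12.60 in wild-type arrays. The 7 mesangial and smooth muscle markers ranged from 11.86 to 11.96 in Vhl-deleted and from 11.55 to 11.83 in wild-type arrays, without overlap. Among them Myl9 (0.40) and Tagln (0.53) were higher without overlap, as was the endothelial marker Cd34 (0.29). Of all these lists 0 genes passed the threshold, where 0.0807% of all genes tested were called. The labelled tissue was thus matched by bright podocyte and endothelial markers in all 6 arrays, with tubule markers beside them. The part of the tubule and glomerular cell markers in the subunits' changes was not tested.

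**Figure D3:**
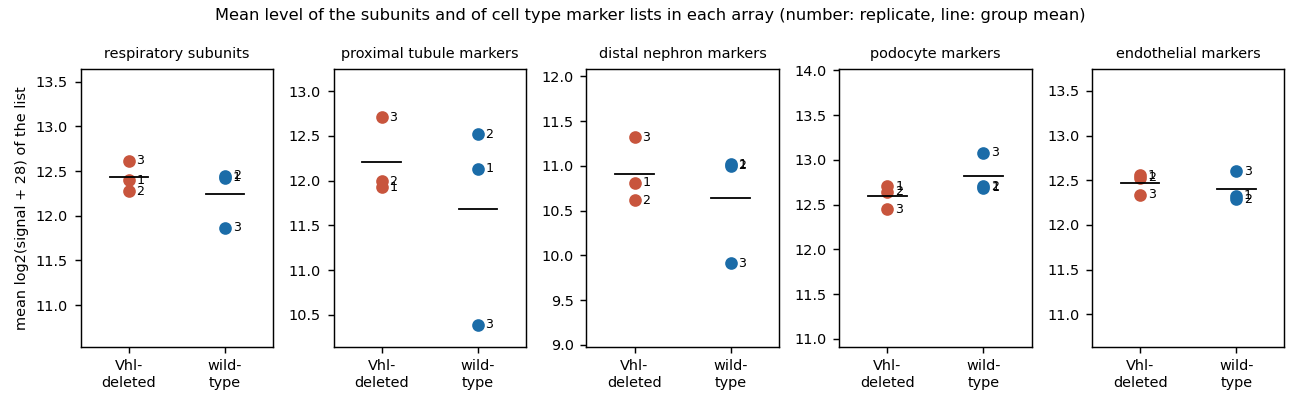
Mean log2(signal + 28) of the 75 subunits and of 4 lists of cell type markers (y axis, the same span of log2 units in each panel) in Vhl-deleted arrays (left in each panel) and wild-type arrays (right), with replicate numbers beside the points and lines for group means. Wild-type replicate 3 is the lowest point for the subunits (11.86) and for proximal tubule (10.39) and distal nephron markers (9.91), and the highest for podocyte markers (13.08).

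The positive median of the subunits did not hold without that array. Without wild-type replicate 3 the median change of the subunits was 0.01, with 41 members positive and 34 negative. Complexes I and II were then at -0.01 and -0.00, and complexes III, IV and V at 0.03, 0.01 and 0.03. With the mean of the proximal tubule markers of each array as a covariate the median was 0.04, with 57 members positive. That covariate was itself lowest in wild-type replicate 3 (10.39), so this fit cannot separate tubule markers from other features of that array. Without Vhl-deleted replicate 3 the median was 0.09, and without wild-type replicate 1 or 2 it was 0.27 in each case. Leaving out both replicates numbered 3, a choice made after the data were seen, gave a median of -0.09 with 65 of 75 members negative. In that fit 5 members had an unadjusted p below 0.05 in limma, with the lowest adjusted p at 0.255. They were Ndufa12, Uqcr10, Cox6b2, Atp5g1 and Atp5md, each lower in Vhl-deleted arrays. The share of all genes with such a p in that fit is not given here. In each of these fits 0 members passed the threshold.

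**Figure D4:**
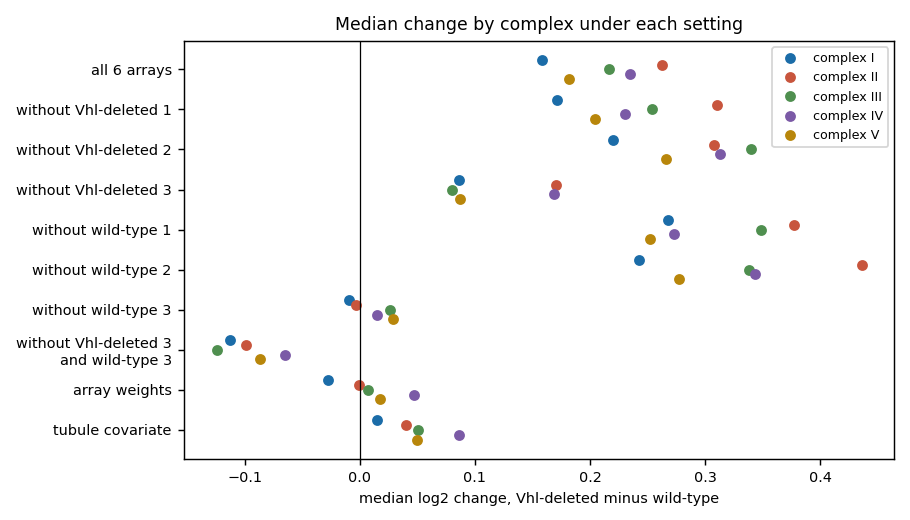
Median log2 change of the subunits of each complex, Vhl-deleted minus wild-type (x axis), with all 6 arrays and under other settings (rows). The medians lie between 0.16 and 0.26 with all arrays, between -0.01 and 0.03 without wild-type replicate 3, and between -0.12 and -0.07 without both replicates numbered 3.

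In complex I no tested gene had separate groups. It is the largest complex, and its nuclear subunits carry symbols starting with Nduf. Of the 33 tested, 32 had a positive change, and the medians of the symbol families were close: 0.14 for the 12 Ndufa, 0.15 for the 10 Ndufb, 0.16 for the 2 Ndufc, 0.16 for the 6 Ndufs and 0.16 for the 3 Ndufv genes. Ndufs8, which binds iron-sulfur clusters on the path of the electrons, had a signal of 7743, 6966 and 8728 in Vhl-deleted arrays, against 7218, 7657 and 4436 in wild-type arrays. Only the last wild-type value lay outside the Vhl-deleted range by much, and the change was 0.31 (SE 0.22, adjusted p = 0.944). Ndufv3, an accessory subunit beside the NADH-binding site, had 6138, 5401 and 6749 in Vhl-deleted arrays, against 5778, 5785 and 3596 in wild-type arrays. Its change was 0.30 (SE 0.20), and 2 of its wild-type values lay within the Vhl-deleted range.

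Ndufs4, an accessory subunit whose loss in mice models Leigh syndrome, had 2077, 1918 and 2134 in Vhl-deleted arrays, against 1986, 1895 and 1488 in wild-type arrays. Its change was 0.20 (95% interval -0.12 to 0.51). Ndufa1, an X-linked subunit needed to build the membrane arm, had 13438, 12602 and 15531 in Vhl-deleted arrays, against 13354, 13170 and 9937 in wild-type arrays. Ndufb11, another subunit of the membrane arm, had 11255, 10154 and 11655 in Vhl-deleted arrays, against 10507, 10871 and 8721 in wild-type arrays. In both genes wild-type replicates 1 and 2 lay within the Vhl-deleted range, with changes of 0.20 and 0.14. Ndufs5 was the exception of complex I, with 3343, 2343 and 2746 in Vhl-deleted arrays, against 2739, 2579 and 2591 in wild-type arrays. There the wild-type arrays were close together. This depended on the probe set: one shared with the pseudogene Ndufs5-ps, and therefore not tested, had 4054, 3404 and 4257 in Vhl-deleted arrays, against 3915, 3597 and 3181 in wild-type arrays, with wild-type replicate 3 the lowest.

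Ndufa12, an accessory subunit of the matrix arm, had the lowest change of complex I, at -0.07 (SE 0.28). The probe set used had 6359, 6209 and 7187 in Vhl-deleted arrays, against 7194, 10220 and 4473 in wild-type arrays. The other bright probe sets of the gene differed on wild-type replicate 2. One had 6276, 6246 and 8077 in Vhl-deleted arrays, against 6745, 6725 and 4615 in wild-type arrays and a difference of 0.20. Another had 6648, 6862 and 7775 in Vhl-deleted arrays, against 7030, 8216 and 4469 in wild-type arrays and a difference of 0.15, and there wild-type replicate 2 was again the highest array. Averaged over its kept probe sets the gene was at 0.03. Without wild-type replicate 3 it was at -0.38 (unadjusted p = 0.0487, adjusted p = 0.999 in limma), the lowest change of any member there.

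Of the 43 members with several kept probe sets, 7 had probe sets of opposite sign: Ndufa7, Ndufa10, Ndufa12, Ndufb2, Ndufv2, Sdhd and Cox7a2l. In Ndufa10 and Ndufb2 the opposing probe set was dim, with mean signals of 95.6 and 147 in Vhl-deleted arrays and 107 and 149 in wild-type arrays. In Ndufa7 the opposing difference was -0.00 and in Ndufv2 it was -0.07. Over all 143 kept probe sets of members, 132 had a positive difference and wild-type replicate 3 was the lowest in 127.

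Ndufb1, and Ndufb4 by the probe set of its symbol alone, were measured poorly. The probe set that carries the symbol Ndufb4 alone did not pass the filter. Its signals were 42.0, 41.2 and 27.6 in Vhl-deleted arrays and 52.2, 41.7 and 61.5 in wild-type arrays. Probe sets that Ndufb4 shares with Ndufb4b and Ndufb4c were bright. Their means were 7537 and 5336 in Vhl-deleted arrays, against 7175 and 5045 in wild-type arrays, with a difference of 0.08 in each. Ndufb1 had 184, 125 and 118 in Vhl-deleted arrays, against 135, 180 and 94.1 in wild-type arrays, and its change of 0.06 had a wide interval (-0.55 to 0.67). In all, 10 probe sets carry several symbols of which at least 1 is a member, and they were not tested. The 6 of them with a mean wild-type signal above 1000 had positive differences from 0.08 to 0.25, and in all 6 wild-type replicate 3 was the lowest array. The other 4 were dim, and in one of them, shared by Ndufa11 and Ndufa11b, the groups did not overlap. It had 159, 155 and 138 in Vhl-deleted arrays, against 61.0, 105 and 101 in wild-type arrays, a difference of 0.63 with no test. A brighter probe set of the same 2 genes had 2681, 2650 and 3251 in Vhl-deleted arrays, against 2978, 2765 and 2044 in wild-type arrays, where the groups overlapped. Among all genes tested, groups did not overlap in 5.04% in the higher and 5.64% in the lower direction.

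Complex II, the succinate dehydrogenase shared with the citric acid cycle, had 4 members, all tested and all with a positive change. Sdha, the flavoprotein that oxidises succinate, had 7312, 7188 and 7808 in Vhl-deleted arrays, against 7269, 7912 and 4343 in wild-type arrays. Sdhb, which holds the iron-sulfur clusters, had 7576, 6834 and 9828 in Vhl-deleted arrays, against 7857, 8432 and 4209 in wild-type arrays. In both genes wild-type replicates 1 and 2 lay above the lowest Vhl-deleted array and wild-type replicate 3 lay below all. The changes were 0.24 (SE 0.22) for Sdha and 0.29 (SE 0.28) for Sdhb.

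The membrane anchors of complex II gave similar values. Sdhd, whose promoter is printed above, had 3277, 3452 and 4082 in Vhl-deleted arrays, against 3348, 3734 and 1931 in wild-type arrays, a change of 0.31 (SE 0.25). Its other kept probe set, with a mean of 579 in Vhl-deleted and 644 in wild-type arrays, had a difference of -0.12. Sdhc had 4009, 4092 and 5611 in Vhl-deleted arrays, against 4400, 4442 and 3040 in wild-type arrays, a change of 0.21 (SE 0.20). Without wild-type replicate 3 the 4 changes of the complex ranged from -0.03 to 0.03.

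All 8 members of complex III had a positive change, from 0.13 to 0.33. Uqcrc2, a core protein of the complex, had 7447, 6863 and 8700 in Vhl-deleted arrays, against 7336, 8261 and 3648 in wild-type arrays. Its change of 0.33 (SE 0.30, 95% interval -0.37 to 1.03) was the largest of the complex, and wild-type replicate 3 stood apart by a log2 difference of -1.09. The other core protein gene, Uqcrc1, had 5187, 4598 and 6731 in Vhl-deleted arrays, against 4888, 5401 and 4408 in wild-type arrays. Its shortfall in wild-type replicate 3 was only -0.22, so the core proteins differed in how far that array lay below the others. Uqcrfs1, the Rieske iron-sulfur protein, had 4827, 4293 and 6740 in Vhl-deleted arrays, against 4706, 5251 and 3648 in wild-type arrays, and Vhl-deleted replicate 3 was its highest array.

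Among the small subunits of complex III, Uqcrq had 3297, 3249 and 4598 in Vhl-deleted arrays, against 3633, 3417 and 2045 in wild-type arrays, a change of 0.32 (SE 0.25). Uqcrh, the hinge protein that helps cytochrome c dock, had 10113, 8755 and 12131 in Vhl-deleted arrays, against 10160, 10395 and 6190 in wild-type arrays. In both, wild-type replicate 3 was the low array. Uqcrb, a subunit near the site where ubiquinone binds, had 31799, 29928 and 34457 in Vhl-deleted arrays, against 30941, 31086 and 26071 in wild-type arrays. Its change of 0.13 (SE 0.11) was the smallest of the complex. Uqcr10 and Uqcr11 were at 0.22 and 0.21.

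Complex IV had the widest spread between members, from -0.27 to 0.46 over 13 tested genes, 10 of them positive. Both ends were dim genes, Cox6b2 and Cox7a1, with mean signals of 243 and 356 in Vhl-deleted arrays and 294 and 268 in wild-type arrays. Among its members with signals above 1000 the changes ran from -0.05 in Cox7a2l to 0.34 in Cox6b1. Cox5a, which faces the matrix, had 16301, 14086 and 16087 in Vhl-deleted arrays, against 14585, 14935 and 8336 in wild-type arrays. Its change was 0.34 (SE 0.23, adjusted p = 0.944). Cox6b1, which contacts cytochrome c on the outer face, had 19131, 17832 and 21815 in Vhl-deleted arrays, against 18569, 19125 and 10284 in wild-type arrays, a change of 0.34 (SE 0.24). In both genes wild-type replicates 1 and 2 lay within the Vhl-deleted range. Cox6c had 14396, 13307 and 17444 in Vhl-deleted arrays, against 14293, 14672 and 8893 in wild-type arrays, and Cox5b was at 0.19.

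Several subunits of complex IV have isoforms that differ between tissues. Cox6a1, the form found in most tissues, had 25194, 22514 and 24386 in Vhl-deleted arrays, against 22086, 23350 and 20760 in wild-type arrays. Its change of 0.12 (SE 0.10) was among the most precise. Cox6a2, the heart and muscle form, had 331, 226 and 296 in Vhl-deleted arrays, against 258, 307 and 111 in wild-type arrays. Cox7a2, the form found in most tissues, had 21253, 19356 and 22968 in Vhl-deleted arrays, against 20535, 20869 and 13512 in wild-type arrays, a change of 0.24 (SE 0.18). The heart and muscle form Cox7a1 had 313, 274 and 481 in Vhl-deleted arrays, against 352, 333 and 120 in wild-type arrays. Its change of 0.46 (SE 0.39, 95% interval -0.47 to 1.38) was the largest of all members and among the least precise, and 2 of its wild-type arrays lay within the Vhl-deleted range.

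The testis forms of complex IV subunits gave low signals. Cox6b2 had 205, 194 and 329 in Vhl-deleted arrays, against 265, 352 and 264 in wild-type arrays, and a change of -0.27 (SE 0.23, adjusted p = 0.944). Cox8c had 291, 237 and 326 in Vhl-deleted arrays, against 341, 305 and 229 in wild-type arrays, a change of -0.03. Cox7b2 did not pass the filter, with 23.3, 2.29 and 27.2 in Vhl-deleted arrays and 29.7, 26.3 and 47.6 in wild-type arrays. In none of these 3 genes did the groups separate. Of the other Cox8 forms, Cox8a had 5658, 5044 and 7628 in Vhl-deleted arrays, against 5818, 6159 and 4114 in wild-type arrays, a change of 0.19.

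The heart and muscle form Cox8b, which did not pass the filter, had groups that did not overlap. It had 8.85, 9.69 and 12.5 in Vhl-deleted arrays, against 31.5, 44.0 and 46.9 in wild-type arrays. In the fit without a filter its change was -0.84 (SE 0.20, adjusted p = 0.684 over 18193 genes). All 6 values lay below the signal of 96.4 at which the filter was set, and detection calls were not used here. Among the genes tested, groups did not overlap in 5.04% in the higher and 5.64% in the lower direction. Other dim member probe sets below the filter separated in either direction. One of Cox5b was lower, with means of 3.36 in Vhl-deleted and 22.6 in wild-type arrays. One of Cox8a was higher, with means of 23.8 in Vhl-deleted and 6.55 in wild-type arrays.

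Cox7a2l, a factor that joins complexes III and IV into supercomplexes, gave values that depended on the probe set. The one used had 3561, 3342 and 3752 in Vhl-deleted arrays, against 3498, 3765 and 3796 in wild-type arrays, and wild-type replicate 3 was its highest array. The change was -0.05 (95% interval -0.28 to 0.17). A second probe set had 2494, 2378 and 2984 in Vhl-deleted arrays, against 2629, 2916 and 2225 in wild-type arrays, with wild-type replicate 3 the lowest and a difference of 0.02. In the other kept probe set wild-type replicate 3 was neither lowest nor highest, and the difference was -0.01. Cox7c was measured by a dim probe set, with 204, 121 and 85.7 in Vhl-deleted arrays and 89.4, 126 and 87.3 in wild-type arrays.

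In the ATP synthase all 17 members had a positive change, from 0.12 to 0.31. The catalytic subunit gene Atp5b had 18857, 16142 and 22475 in Vhl-deleted arrays, against 17439, 19919 and 12752 in wild-type arrays, a change of 0.21 (SE 0.19). Its partner Atp5a1 had 12612, 11289 and 15410 in Vhl-deleted arrays, against 11701, 13164 and 9814 in wild-type arrays, a change of 0.18 (SE 0.16). In both, wild-type replicates 1 and 2 lay within the Vhl-deleted range. The genes of the central stalk, Atp5c1, Atp5d and Atp5e, were at 0.22, 0.25 and 0.13.

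Atp5g1, Atp5g2 and Atp5g3 encode the same mature protein, the c subunit of the rotating ring. Atp5g3 had 20828, 19732 and 23443 in Vhl-deleted arrays, against 19101, 20310 and 16058 in wild-type arrays. Its change of 0.21 (SE 0.13, 95% interval -0.09 to 0.50) had the lowest p of all members. Atp5g2 had 5445, 5386 and 7245 in Vhl-deleted arrays, against 5571, 6073 and 3815 in wild-type arrays, a change of 0.24 (SE 0.20). Atp5g1 had 3904, 3630 and 5749 in Vhl-deleted arrays, against 4697, 4323 and 2073 in wild-type arrays, a change of 0.31 (SE 0.33). Atp5g1 varied most of the 3 within both groups: wild-type replicate 3 differed from the other two by -1.11 in Atp5g1, -0.60 in Atp5g2 and -0.29 in Atp5g3.

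The stator and membrane subunits of the synthase differed mainly in how widely their wild-type arrays spread. Atp5h, subunit d of the stator, had 18490, 15599 and 18434 in Vhl-deleted arrays, against 16860, 17207 and 12540 in wild-type arrays, a change of 0.18 (SE 0.15). Atp5j, coupling factor 6, had 8338, 9239 and 10327 in Vhl-deleted arrays, against 8706, 8807 and 7822 in wild-type arrays, a change of 0.14 (SE 0.11). Both groups overlapped in each gene. Atp5k, subunit e, had 9804, 9051 and 10757 in Vhl-deleted arrays, against 9407, 10199 and 7722 in wild-type arrays, and its change of 0.12 was the smallest of the complex. Atp5md, a small subunit linked to the dimers of the synthase, had 3688, 2899 and 4486 in Vhl-deleted arrays, against 4929, 4166 and 1571 in wild-type arrays. Its interval was wide (-0.79 to 1.16), and without wild-type replicate 3 it was at -0.32 (adjusted p = 0.999).

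Genes that work beside the subunits gave no call either. Of 42 assembly factors tested, out of 46 listed, 25 were positive, the median change was 0.04 and 0 passed. Only 0.0807% of all genes tested were called. Tmem126b, an assembly factor of complex I, had 390, 385 and 310 in Vhl-deleted arrays, against 533, 402 and 501 in wild-type arrays. Its change was -0.38 (SE 0.16, adjusted p = 0.944). It was the only assembly factor of the 42 whose groups did not overlap. Over all genes this held for 5.04% in the higher and 5.64% in the lower direction. The next in order of p were Sdhaf4 (0.31) and Ndufaf2 (0.22), assembly factors of complexes II and I. Wild-type replicate 3 was the lowest array in 61.9% of the assembly factors.

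Of 20 electron carriers and exchange proteins tested, out of 21 listed, 16 were positive. The median change was 0.14 and 0 passed, beside 0.0807% called over all genes. Vdac2, a channel of the outer mitochondrial membrane, had 13436, 12769 and 13624 in Vhl-deleted arrays, against 11208, 11855 and 10768 in wild-type arrays, without overlap of the groups. Its change was 0.24 (SE 0.09, adjusted p = 0.944). No other gene of the 20 had separate groups, beside 5.04% higher and 5.64% lower over all genes. Slc25a3, the phosphate carrier, and Coq8a, a kinase-like protein of ubiquinone synthesis, were at 0.21 and 0.54. Wild-type replicate 3 was the lowest array in 80% of this list.

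All 19 regulators of mitochondrial biogenesis and mitochondrial gene expression were tested, 12 of them with a positive change. Their median was 0.08 and 0 passed the threshold, beside 0.0807% called over all genes. Nrf1, which encodes the factor of the motif printed above, had 228, 234 and 138 in Vhl-deleted arrays, against 230, 268 and 234 in wild-type arrays, a change of -0.28 (SE 0.21). Lrpprc, which stabilises mitochondrial messenger RNAs, and the coactivator gene Pprc1 were at 0.27 and 0.16. In each of the 3 the groups overlapped, and wild-type replicate 3 was the lowest array in 52.6% of the list.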

How the data were processed

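Per the labels, glomerular RNA of 6 mice was hybridised to Affymetrix arrays, 1 per mouse. Each probe set has an intensity, as deposited a linear signal from MAS5, which is named with no version in the submitters' processing notes. With 2% trimmed from each end, every array has a mean of 500, and no pair of arrays held identical values. Precision is limited by the number of arrays.

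Of 45101 probe sets, 64 are controls, and of the others 34945 had 1 symbol, 932 several and 9160 none in the array's annotation. All 78 members matched a RefSeq gene by Entrez number. The pseudocount of 28 before log2 was the 25th percentile of all signals, and it makes changes of dim genes smaller. Probe sets in the upper 50% by mean log2 value were kept (a signal of about 96.4), and the brightest stood for each gene. The comparison used lmFit and eBayes with trend from limma 3.58.1 (R 4.3.3), with 95% intervals, adjusted over 11159 genes at 0.05, and tested on simulated data. There, 18.4% of simulated 1.5-fold changes, 53.6% of 2-fold and 85.6% of 4-fold changes were recovered, so small changes are mostly missed. Replicates are labelled biological. Medians over lists carry no test.

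The members and lists were chosen with earlier results of these data known. Named were, per complex, the 3 members of lowest p, the 2 brightest and the one of lowest change, members without overlap, below the filter or with probe sets of opposite sign, isoform genes, and from each pathway list the 3 of lowest p. Others, such as Ndufs5, Atp5md, Ndufb1, Slc34a1 and Nphs1, were named after their values were seen. Alternatives changed the scaling, pseudocount, filter, probe set choice, variance model, array weights, replicate block, a tubule covariate and the threshold, and left out each array.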

Additional observations from a re-analysis of the deposited data

How the results depend on the processing

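In all settings run, 0 respiratory chain and ATP synthase subunits passed the threshold. Over all genes the number called was 9 with all 6 arrays, 33 with array weights, 33 with the proximal tubule covariate, 18 at an adjusted p of 0.1, 1 with the replicate number as a block, 1 to 12 without one array and 36 without both replicates numbered 3. Nothing in the labels says whether the replicate numbers pair the mice. Correlations of same-numbered arrays were -0.0203, -0.41 and -0.513. They rest on deviations from means of 3 arrays and cannot decide this. The block changed no call among the subunits. The median change of the subunits, 0.19 with all arrays, ranged from 0.01 to 0.27 without one array, lowest without wild-type replicate 3. By complex this range was -0.01 to 0.27 for I, -0.00 to 0.44 for II, 0.03 to 0.35 for III, 0.01 to 0.34 for IV and 0.03 to 0.28 for V. Without both replicates numbered 3, chosen after seeing the data, the median was -0.089 in all, -0.11 in complex I, -0.10 in II, -0.12 in III, -0.065 in IV and -0.086 in V. Of the 75 members, 71 were positive with all arrays, 41 with array weights (median 0.0074), 57 with the covariate and 41 without wild-type replicate 3. Single changes were followed in the 36 tested members named by rule. Among these 36, array weights turned the sign in Atp5g1 (-0.094), Cox7a1 (-0.0069), Cox8a (-0.034), Ndufb2 (-0.087), Ndufv2 (-0.035), Sdhb (-0.023) and Sdhc (-0.034), the covariate in Ndufb2 (-0.026), and the mean of kept probe sets in Ndufa12 (0.026). Among the same 36, leaving out one array turned it in Atp5g1 (-0.055 to 0.53), Cox6a2 (-0.0014 to 0.63), Cox8c (-0.18 to 0.089), Ndufa12 (-0.38 to 0.21), Ndufb2 (-0.077 to 0.28), Ndufv2 (-0.019 to 0.27), Sdha (-0.029 to 0.40), Sdhb (-0.028 to 0.47), Uqcrc2 (-0.028 to 0.56) and Uqcrh (-0.0050 to 0.37). The cause of these shifts was not tested. Signals near 96.4, where the filter was set, limit what Ndufb1 and Cox7c show.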
